A study of Mus musculus with 7 samples.

Results

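Apoe, Lpl, Abca1, Abcg1, Nr1h2, Nr1h3, Lrp1 and Ch25h are genes of lipoprotein handling and of the liver X receptors (LXR) that govern cholesterol efflux. They were taken by symbol from the deposited counts table. All 8 were found, among 14594 rows with a gene name, and 7 passed the filter on low counts and were tested, all but Ch25h. RNA was measured in cortical microglia, the resident macrophages of the brain, sorted by colour from 12-week-old C57BL/6 mice. Hoxb8 microglia (n = 3 libraries) carried both tdTomato and GFP, and non-Hoxb8 microglia (n = 4 libraries) carried GFP alone. The series compares them to learn whether microglia descended from Hoxb8-expressing precursors differ in their transcripts. Both groups came from mice of a single genotype, each with 1 Cx3cr1 copy replaced by GFP, a Cre recombinase placed behind an IRES at 1 Hoxb8 copy, and a CAG-driven tdTomato at ROSA26 that Cre switches on. All libraries thus share a reduced Cx3cr1 dose, and a cell of the Hoxb8 lineage in which Cre had not acted would be counted as non-Hoxb8. The labels name 4 animals for 7 libraries and do not say which share an animal, so p-values measure the spread between these libraries.

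In macrophages, oxysterols such as 25-hydroxycholesterol bind LXR, which pairs with the retinoid X receptor on DNA and raises transcription of the transporters that move cholesterol out of the cell. ApoE takes up that cholesterol and is the main lipid carrier of the brain, made by astrocytes and, in many disease states, by microglia. Lrp1 is an endocytic receptor that takes ApoE particles back in. Border macrophages of the meninges and vessels express Apoe strongly, whereas resting microglia hold less of it.

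All 8 genes are protein-coding in GENCODE M21 on GRCm38. Apoe lies on chromosome 7 from 19696109 to 19699188, Nr1h2 on chromosome 7 from 44549616 to 44553951, Abca1 on chromosome 4 from 53030787 to 53159895 and Lpl on chromosome 8 from 68880491 to 68907448. Abcg1 lies on chromosome 17 from 31057675 to 31117988, Nr1h3 on chromosome 2 from 91184061 to 91202834, Lrp1 on chromosome 10 from 127538161 to 127621148 and Ch25h on chromosome 19 from 34473778 to 34475164. Reads were not stranded, and Lrp1 overlaps Gm16217, Ch25h overlaps Gm26902 and Nr1h3 overlaps Gm23390 on the opposite strand, with Gm13783 over Nr1h3 and Gm25447 within Abcg1 on the same strand, so part of those counts could come from the overlapping gene. The 250 bases before the start site are printed for Apoe, the member with the largest difference between groups among those of high level, and for Abca1, the classic LXR target (RefSeq, GRCm38.p6, both on the minus strand and read 5′ to 3′ along the gene). Capitals mark a match to GGTTANNNNNGGTCA, a form of the paired LXR site, and to TATAAA, the TATA box.
Apoe, chr7:19699189-19699438: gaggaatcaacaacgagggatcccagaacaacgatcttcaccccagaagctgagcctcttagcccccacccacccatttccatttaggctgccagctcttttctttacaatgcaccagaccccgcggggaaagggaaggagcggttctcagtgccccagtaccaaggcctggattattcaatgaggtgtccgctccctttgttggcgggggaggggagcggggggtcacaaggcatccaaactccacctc
Abca1, chr4:53159896-53160145: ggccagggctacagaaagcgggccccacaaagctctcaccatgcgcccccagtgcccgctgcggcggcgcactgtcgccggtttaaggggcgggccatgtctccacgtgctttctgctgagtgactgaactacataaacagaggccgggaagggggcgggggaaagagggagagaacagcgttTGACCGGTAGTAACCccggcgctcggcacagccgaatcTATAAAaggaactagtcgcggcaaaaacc
In Abca1 the paired site read on the opposite strand spans positions -67 to -53 from the start site and the TATA box -29 to -24. The paired site was chosen with the Abca1 window in view. On either strand it was present in 0.0457% of 32851 such windows, and, of the 6 members with a window, in Abca1. AGGTCA, the core site of nuclear receptors, was present in 14% of windows and in 0 of the 6 members, and GGGCGG, the GC box, in 32.7% of windows and in 2 of the 6 (Abca1 and Lrp1). TATAAA was present in 12.4% of windows and in 2 of the 6 members (Abca1 and Ch25h). The last bases of the paired site can form part of AGGTCA, and the matches in Abca1 do not overlap. A match describes letters only, and its absence from a window says nothing of LXR.

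Library totals ran from 5922972 to 7753577 counts, with 13058 to 13750 genes detected, and no difference in total was detected between groups (exact two-sided permutation test over 35 splits, p = 0.457, smallest possible p = 0.0571). Reads carried no molecular identifiers, so counts can include copies of the same molecule. Limits drawn from counts cover sampling error only. Defining microglial markers were abundant in both groups, with 13 of 13 present and summed levels of 49094 to 55385 CPM in Hoxb8 libraries and 43053 to 56090 CPM in non-Hoxb8 libraries (CPM, counts normalised to library depth with edgeR's TMM factors). Libraries 14 and 13, from Hoxb8 and non-Hoxb8 microglia, stood apart by inflammatory RNA. Their summed level of 12 such genes was 9201 CPM in Hoxb8 library 14 and 6141 CPM in non-Hoxb8 library 13, beside 373 to 1681 CPM elsewhere. Libraries 22, 21 and 25 held both Xist (8291 to 14318 CPM) and Y-linked RNA (84.7 to 133 CPM in sum over 4 genes), while the others held mainly Xist (libraries 6 and 5) or Y-linked RNA (libraries 14 and 13).

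By level per kilobase of exon, a scale that allows roughly for gene length, the members spanned more than 2 orders of magnitude. Abca1 had a mean of 67.6 ± 5.56 CPM per kilobase in Hoxb8 libraries and 78.0 ± 7.67 CPM per kilobase in non-Hoxb8 libraries, and Apoe one of 80.3 ± 39.9 CPM per kilobase in Hoxb8 libraries and 44.2 ± 22.1 CPM per kilobase in non-Hoxb8 libraries (SD, n = 3 and 4). In Hoxb8 libraries Apoe and Abca1 led and Lrp1 (47.7 ± 5.32 CPM per kilobase), Abcg1 (23.0 ± 2.50), Nr1h2 (6.88 ± 1.65), Lpl (2.72 ± 0.967), Nr1h3 (0.337 ± 0.412) and Ch25h (mean 0.0967) followed. In non-Hoxb8 libraries the order after Abca1 was Lrp1 (50.7 ± 6.57 CPM per kilobase), Apoe, Abcg1 (23.3 ± 1.52), Nr1h2 (6.98 ± 2.19), Lpl (3.32 ± 0.985), Nr1h3 (0.683 ± 0.468) and Ch25h (mean 0.144). The ranges of Apoe and Lrp1 overlapped in both groups, as did those of Nr1h3 and Ch25h. Abca1 and Apoe overlapped in Hoxb8 libraries, whereas in non-Hoxb8 libraries every Abca1 value was above every Apoe value and Apoe overlapped Abcg1 (22.4 to 71.8 CPM per kilobase for Apoe and 21.1 to 24.3 for Abcg1). Lrp1 and Abcg1, Abcg1 and Nr1h2, Nr1h2 and Lpl, and Lpl and Nr1h3 did not overlap in either group. The sum of exon lengths came from GENCODE M21, which is later than the M5 release the authors mapped against. It joins the exons of all transcripts of a gene, so it can exceed the length of the transcript present. The order of the genes depends on these lengths. In CPM alone, the mean of Lpl was above that of Nr1h2 (28.5 and 23.1 CPM in Hoxb8 libraries, 34.8 and 23.4 CPM in non-Hoxb8 libraries).

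**Figure D1:**
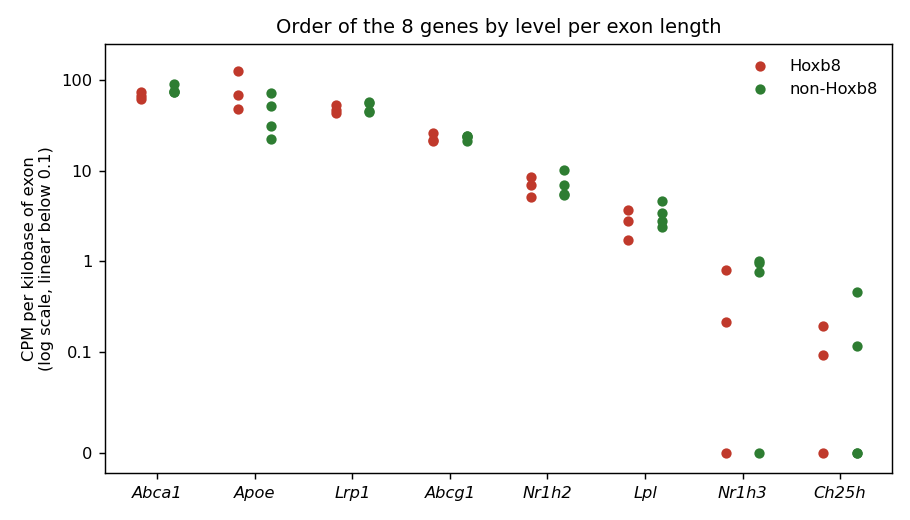
Level of each gene in CPM per kilobase of exon (log scale, linear below 0.1), with a point per library, Hoxb8 libraries left of non-Hoxb8 libraries. Abca1, Apoe and Lrp1 lie highest, and Nr1h3 and Ch25h reach 0 in both groups.

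Apoe, the lipid carrier itself, was the member that differed most between groups among those with more than a few counts. It stood at 145, 267 and 103 CPM in Hoxb8 libraries (libraries 6, 14 and 22) and at 47.9, 110, 66.7 and 154 CPM in non-Hoxb8 libraries (libraries 5, 13, 21 and 25). The groups overlapped, since non-Hoxb8 library 25 was above Hoxb8 libraries 6 and 22. The means were 172 ± 85.4 CPM (SD, n = 3) in Hoxb8 libraries and 94.6 ± 47.2 CPM (SD, n = 4) in non-Hoxb8 libraries, a ratio of 1.81. The log2 fold change was 0.86 ± 0.45 (SE; 95% interval -0.17 to 1.89), which did not pass the quasi-likelihood test of edgeR (adjusted p = 1.00, by Benjamini-Hochberg over the 11874 genes tested). Apoe also varied more within groups than most genes. The SD of its log2 CPM within groups was 0.73, above that of 97.3% of 1164 genes of like level (within 0.5 log2 units), whose median was 0.28.

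The call on Apoe turned on how the libraries are matched. Libraries with adjacent numbers (6 and 5, 14 and 13, 22 and 21) deviated together from their group means and were taken as possible pairs, although the labels do not state that they share an animal. Within these pairs Apoe was 3.02, 2.42 and 1.54 times as high in the Hoxb8 library as in the non-Hoxb8 library. All 3 pairs had the Hoxb8 library on top for 12.6% of tested genes. With the pairs in the fit the log2 fold change was 1.17 ± 0.21 (95% interval 0.75 to 1.59) and Apoe rose past the test (edgeR adjusted p = 0.0018). That fit has 2 residual degrees of freedom, and library 25, the non-Hoxb8 library with the highest Apoe level, has no partner and adds nothing to its difference between groups. Leaving out a pair kept the call, with log2 fold changes of 0.95, 1.10 and 1.43. Each of those fits rests on fewer pairs and has still fewer residual degrees of freedom. Without pairs, leaving out Hoxb8 library 14 gave 0.39 and leaving out non-Hoxb8 library 25 gave 1.19, neither of them past the test. It was 0.47 without libraries 14 and 13, the highest in inflammatory RNA, and 1.38 without libraries 21, 22 and 25, which hold both Xist and Y-linked RNA, again not past the test.

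**Figure D2:**
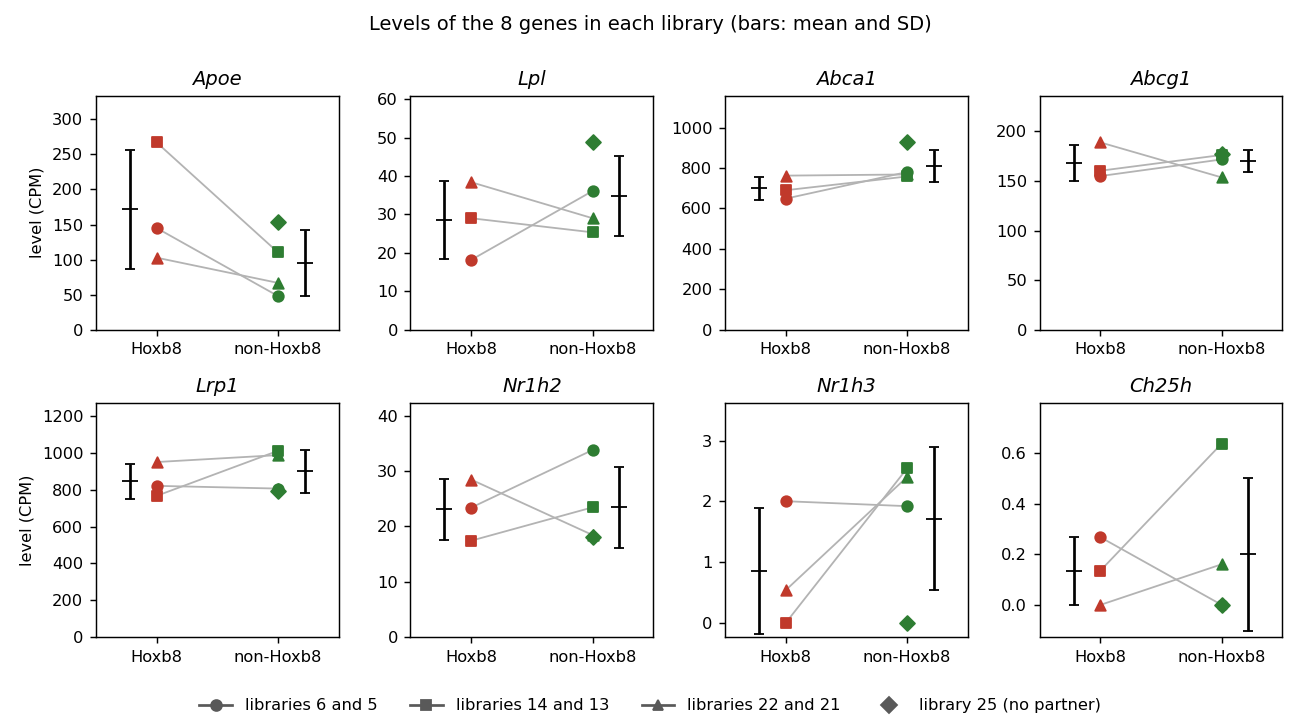
Level of each of the 8 genes in CPM, with a point per library, Hoxb8 on the left and non-Hoxb8 on the right, lines between libraries with adjacent numbers, and bars for the mean and SD. No gene shows a gap between groups. Apoe was higher in the Hoxb8 library of each pair, and Abca1 was lower.

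Summed markers of border macrophages and of monocytes also had higher means in Hoxb8 libraries. The labels state that meninges were removed before digestion. The summed level of 11 border macrophage markers was 742, 1525 and 348 CPM in Hoxb8 libraries 6, 14 and 22 and 162, 220, 91.2 and 377 CPM in non-Hoxb8 libraries 5, 13, 21 and 25. The Hoxb8 library held 4.59, 6.94 and 3.81 times the sum of its partner, and non-Hoxb8 library 25 held more than Hoxb8 library 22. All 11 had log2 fold changes above 0 (median 2.18), with 0 past edgeR's test without pairs and 7 with them. Over all tested genes, 0.0337% passed as higher without pairs and 0.362% with them. The 10 monocyte markers summed to 301 to 652 CPM in Hoxb8 libraries and 133 to 208 CPM in non-Hoxb8 libraries. Of the 8 tested, 1 (Itga4, named after its values were seen) passed without pairs and 3 with them. Lyz2 was the largest part of the sum in every library, with means of 288 CPM in Hoxb8 and 125 CPM in non-Hoxb8 libraries. The markers did not all go the same way. Of the 8 tested, 7 had log2 fold changes above 0, and Vcan had one of -0.88. Ly6c2 had 26 counts in non-Hoxb8 library 5 and 0 in every other library. Astrocyte markers, the other main source of Apoe in brain, summed to 297 to 684 CPM in Hoxb8 libraries and 403 to 1172 CPM in non-Hoxb8 libraries, and 0 of 6 tested had a log2 fold change above 0 (median -0.51). With the pairs 3 of the 6 were above 0 (median -0.02), and the sums in the Hoxb8 library were 0.714, 1.01 and 1.32 times those of its partner. The highest astrocyte sum was in library 25, which has no partner, and none of the 9 astrocyte markers was at 0 in all libraries. The 12 immediate early genes, a mark of dissociation and stimulation, summed to 1592, 8673 and 742 CPM in Hoxb8 libraries 6, 14 and 22 and to 1616, 6536, 592 and 8346 CPM in non-Hoxb8 libraries 5, 13, 21 and 25. The libraries that stood apart by these genes were 14, 13 and 25, which held the highest Apoe level of the Hoxb8 group and the 2 highest of the non-Hoxb8 group. Inflammatory RNA was likewise highest in these libraries within each group, at 784, 9201 and 439 CPM in the Hoxb8 libraries and 804, 6141, 373 and 1681 CPM in the non-Hoxb8 libraries. The border macrophage, monocyte and astrocyte sums were also highest in these same libraries within each group. The match with Apoe was thus not particular to immediate early or inflammatory RNA. Within pairs the Hoxb8 library held between 0.985 and 1.33 times the immediate early sum of its partner. A different share of such cells and a different level of Apoe per cell cannot be told apart in these bulk libraries, and the part of these cells, of immediate early RNA and of inflammatory RNA in the Apoe difference was not tested.

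**Figure D3:**
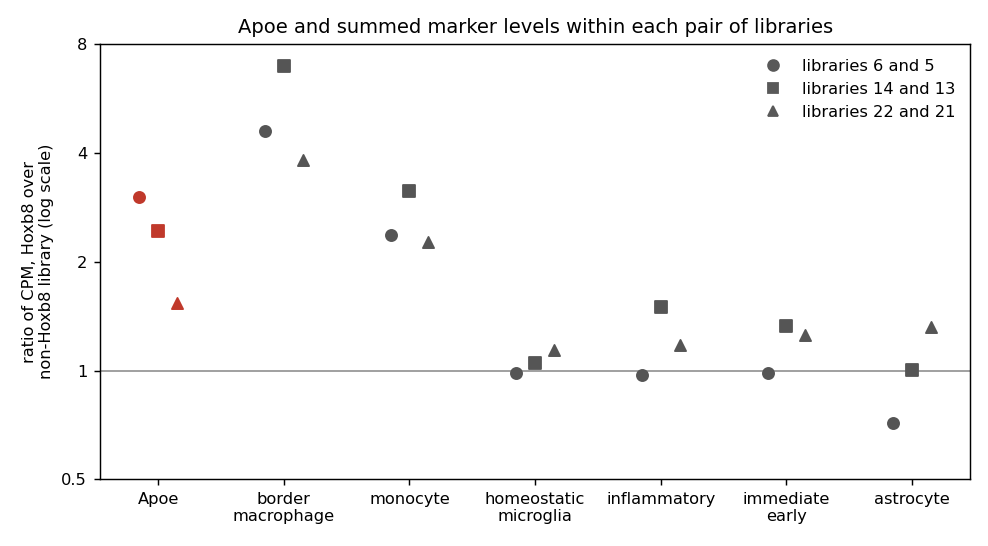
Ratio of CPM in the Hoxb8 library over the non-Hoxb8 library of each pair (log scale) for Apoe and for the summed markers of 6 lists. Apoe, border macrophage and monocyte sums are above 1 in all 3 pairs, and homeostatic microglial sums are between 0.987 and 1.14.

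The genes most like Apoe were ranked by the root mean square difference of their centred log2 CPM over the 7 libraries, among 8377 genes of at least 10 CPM on average. They were Myo5a, an actin-based motor (0.24), Ryk, a Wnt receptor (0.25), Arl2, a small GTPase (0.28), Pxdc1 (0.29) and Nelfe, a subunit of the negative elongation factor (0.29), beside a median difference of 0.83. Myo5a stood at 89.9, 165 and 91.2 CPM in Hoxb8 libraries and 24.9, 62.3, 49.5 and 102 CPM in non-Hoxb8 libraries, so that libraries 14 and 25 led their groups as they did for Apoe. Of the 5, only Myo5a passed the test with pairs (edgeR adjusted p = 0.0012), and 0 passed without them. Likeness is a description over 7 libraries, some of which may share an animal, and says nothing of shared control.

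Lpl, the lipase that frees fatty acids from lipoproteins, did not differ beyond its spread. It stood at 18.2, 29.0 and 38.4 CPM in Hoxb8 libraries and 36.1, 25.3, 29.0 and 48.8 CPM in non-Hoxb8 libraries. The ranges overlapped, and the pairs went different ways, with ratios of 0.503, 1.15 and 1.32. The log2 fold change was -0.29 ± 0.34 (95% interval -1.02 to 0.44, edgeR adjusted p = 1.00). The genes nearest to its pattern were Smim13, Hus1, Mapkapk5, Pde7a and Dennd2c, with differences of 0.11 to 0.16, 0 of them past the test in either fit.

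The efflux transporters did not differ beyond their spread. Abca1, which loads cholesterol and phospholipid onto lipid-poor apolipoproteins, stood at 648, 690 and 762 CPM in Hoxb8 libraries and 780, 758, 768 and 927 CPM in non-Hoxb8 libraries. Hoxb8 library 22 reached into the non-Hoxb8 range, so the groups overlapped by a small margin. The log2 fold change was -0.21 ± 0.14 (95% interval -0.51 to 0.10, edgeR adjusted p = 1.00). All 3 pairs had Abca1 lower in the Hoxb8 library, at ratios of 0.831, 0.910 and 0.993, a pattern held by 12.1% of tested genes, and with the pairs the log2 fold change was -0.14 ± 0.13 (edgeR adjusted p = 1.00). Abcg1, which passes cholesterol to mature lipoproteins, stood at 155, 160 and 189 CPM in Hoxb8 libraries and 172, 176, 154 and 178 CPM in non-Hoxb8 libraries. Its log2 fold change was -0.01 ± 0.17 (95% interval -0.38 to 0.35), so a change of the size Apoe showed with the pairs lies outside the intervals of both transporters. Abcg1 was also among the steadiest genes of its level, with an SD of log2 CPM within groups of 0.12, larger than that of only 4.63% of 993 genes of like level.

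Lrp1, the uptake receptor for ApoE, stood at 821, 766 and 950 CPM in Hoxb8 libraries and 806, 1011, 987 and 791 CPM in non-Hoxb8 libraries. These ranges overlapped nearly throughout. The log2 fold change was -0.09 ± 0.15 (95% interval -0.41 to 0.23, edgeR adjusted p = 1.00), and it was 0.03 without libraries 13 and 14.

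Of the receptors, Nr1h2 (LXR beta) was the more abundant per length in every library. It stood at 23.4, 17.4 and 28.4 CPM in Hoxb8 libraries and 33.8, 23.4, 18.4 and 18.0 CPM in non-Hoxb8 libraries, with a log2 fold change of -0.02 ± 0.36 (95% interval -0.78 to 0.74). Nr1h3 (LXR alpha) had 15, 0 and 4 counts in Hoxb8 libraries and 14, 20, 15 and 0 counts in non-Hoxb8 libraries. A library at 0 allows up to 0.405 CPM in Hoxb8 library 14 and 0.515 CPM in non-Hoxb8 library 25 (3 counts), below the 1.92 to 2.55 CPM of the other non-Hoxb8 libraries. Nr1h3 had a log2 fold change of -1.01 ± 1.37 (95% interval -3.92 to 1.90, edgeR adjusted p = 1.00), an interval that spans several fold in both directions. Per length, Nr1h3 made up 10.3%, 0% and 2.47% of the LXR RNA in Hoxb8 libraries and 7.05%, 12.7%, 14.8% and 0% in non-Hoxb8 libraries.

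Ch25h, the enzyme that makes 25-hydroxycholesterol, was near the limit of detection. It had 2, 1 and 0 counts in Hoxb8 libraries and 0, 5, 1 and 0 counts in non-Hoxb8 libraries, and it did not pass the filter on low counts. All but non-Hoxb8 library 13 were at or under the 3 counts that a library at 0 allows (0.382 to 0.515 CPM). A difference was not detectable at this depth, and no fold is given. Library 13 was also among the libraries highest in inflammatory RNA, and its partner, Hoxb8 library 14, held 1 count.

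Of the 7 tested members, 0 passed edgeR without pairs in either direction, where 0.0337% of all tested genes passed as higher and 0% as lower. At an unadjusted p below 0.05 the count was also 0 of 7, beside 1.95% of all genes higher and 1.57% lower. DESeq2 and limma-voom without pairs called 0 of 7 (0.168% and 0% of genes higher). With pairs, 1 of 7 passed as higher in edgeR (0.362% of genes), DESeq2 (0.413%) and limma-voom (0.396%), which was Apoe each time, and 0 passed as lower (0% of genes in edgeR). No member was free of overlap between groups, as against 2.48% of genes above and 2.08% below. The median log2 fold change of the 7 was -0.09, beside -0.00034 over all genes tested. Since the members were chosen with earlier results known, these counts describe them and are not independent evidence.

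**Figure D4:**
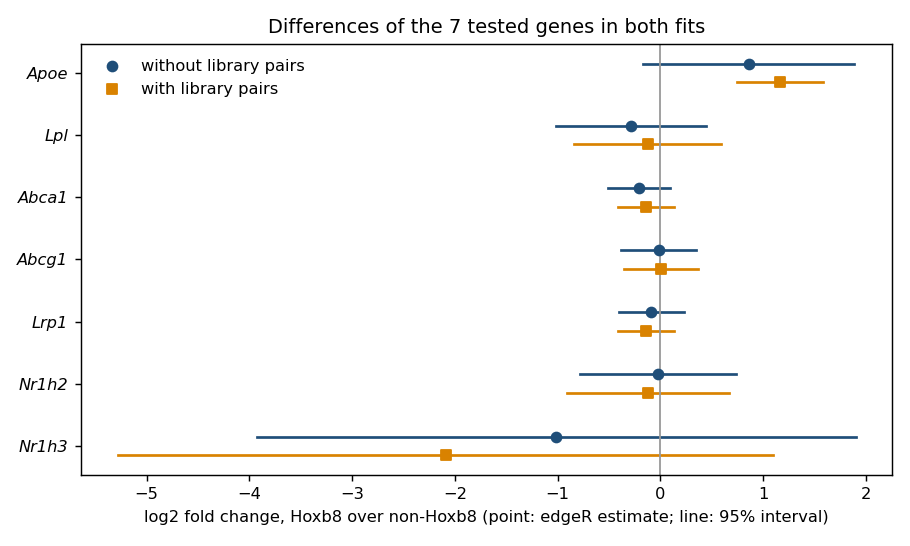
Log2 fold change of Hoxb8 over non-Hoxb8 libraries for the 7 tested genes, as edgeR's estimate with its 95% interval, without and with the library pairs. Apoe lies at 0.86 and, with the pairs, at 1.17, where its interval leaves 0; all other intervals include 0.

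Few genes of the wider set of lipid genes passed a test. Of 75 genes in 7 other lists, 60 were tested, 35 with log2 fold changes above 0 and 25 below (median 0.05). In edgeR without pairs 0 passed, with 3 higher (Cd36, Olr1 and Cd5l) and 1 lower (Apob) of the 60 at an unadjusted p below 0.05, where 1.95% of all tested genes were higher and 1.57% lower, and limma-voom called 0. DESeq2 called 1 of 60, Cd36, beside 0.168% of all genes, and with the pairs edgeR too called 1 of 60 (1.67%), again Cd36, beside 0.362% of all genes. Olr1, Cd5l, Apob and Apoc2 are named after their values were seen.

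**Figure D5:**
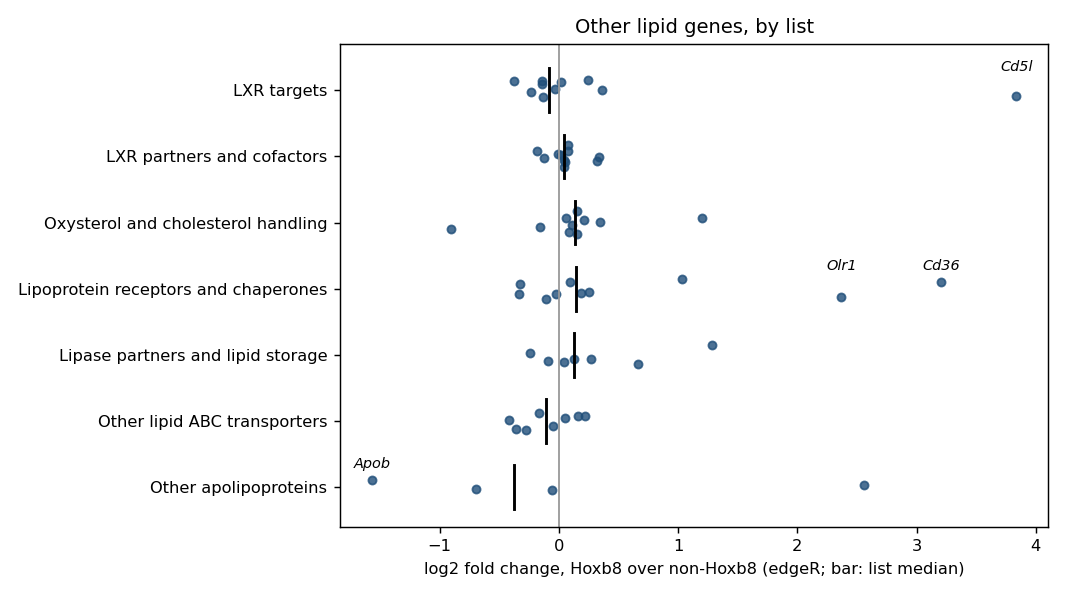
Log2 fold change (edgeR, Hoxb8 over non-Hoxb8) of each tested gene of the 7 other lists, with bars for list medians. Medians lie between -0.38 and 0.14, and 4 genes with an unadjusted p below 0.05 are named.

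Of 10 other LXR targets tested, 4 had log2 fold changes above 0 (median -0.08, and 0.06 with the pairs). Srebf1, the regulator of fatty acid synthesis, stood at 22.4 ± 10.6 CPM in Hoxb8 libraries and 18.9 ± 1.41 CPM in non-Hoxb8 libraries (SD, n = 3 and 4). Mylip, which degrades lipoprotein receptors, stood at 367 ± 66.4 CPM in Hoxb8 and 404 ± 53.9 CPM in non-Hoxb8 libraries, and Lpcat3, a phospholipid remodelling enzyme, at 192 ± 39.5 CPM in Hoxb8 and 210 ± 27.6 CPM in non-Hoxb8 libraries. Cd5l, a secreted macrophage protein, stood apart from these. It had 37, 36 and 12 counts in Hoxb8 libraries and 2, 3, 2 and 0 counts in non-Hoxb8 libraries, with no overlap (log2 fold change 3.84 ± 1.14, edgeR adjusted p = 1.00 without pairs and 0.80 with them). Apoc2, an activator of Lpl encoded near Apoe, had 14, 6 and 12 counts in Hoxb8 libraries and 0, 2, 0 and 0 counts in non-Hoxb8 libraries. It did not pass the filter on low counts, and the ratio of its summed counts per depth was 19.5 (95% exact interval 4.97 to 168, counting error only). Apoc2 overlaps Gm44805 on the same strand.

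Retinoid X receptors and cofactors had a median of 0.04 over 11 tested genes, 8 above 0, all between -0.18 and 0.33. Rxra stood at 69.2 ± 20.8 CPM in Hoxb8 libraries and 69.7 ± 10.7 CPM in non-Hoxb8 libraries, Rxrb at 31.1 ± 11.1 CPM in Hoxb8 and 24.6 ± 5.28 CPM in non-Hoxb8 libraries, and the corepressor Ncor1 at 452 ± 84.1 CPM in Hoxb8 and 446 ± 57.1 CPM in non-Hoxb8 libraries. Genes of oxysterol and cholesterol handling had a median of 0.13 over 10 tested genes, 8 above 0. Cyp27a1, which makes 27-hydroxycholesterol, stood at 44.0 ± 12.2 CPM in Hoxb8 libraries and 39.6 ± 10.2 CPM in non-Hoxb8 libraries. Cyp46a1, the neuronal 24-hydroxylase, stood at 4.11 ± 2.76 CPM in Hoxb8 and 1.79 ± 1.21 CPM in non-Hoxb8 libraries, and Hsd3b7, which clears oxysterols, at 36.1 ± 5.65 CPM in Hoxb8 and 34.6 ± 14.1 CPM in non-Hoxb8 libraries.

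Lipoprotein receptors and their chaperones had a median of 0.14 over 10 tested genes, 6 above 0. Cd36, a fatty acid and lipoprotein scavenger receptor, stood at 12.4, 53.0 and 13.6 CPM in Hoxb8 libraries and 0.137, 4.97, 0.802 and 5.50 CPM in non-Hoxb8 libraries. Every Hoxb8 library was above every non-Hoxb8 library, and library 14 was far above the others. Cd36 had a log2 fold change of 3.20 ± 0.96 (edgeR adjusted p = 1.00, DESeq2 adjusted p = 0.027), and with the pairs it rose by 4.19 ± 0.62 on the log2 scale (edgeR adjusted p = 0.00011). Olr1, a receptor for oxidised LDL, stood at 21.8, 33.3 and 4.85 CPM in Hoxb8 libraries and 0.687, 10.8, 3.05 and 0.687 CPM in non-Hoxb8 libraries (log2 fold change 2.37 ± 0.95, edgeR adjusted p = 1.00). Lrp8, another ApoE receptor, stood at 3.41 ± 3.08 CPM in Hoxb8 and 3.0 ± 3.91 CPM in non-Hoxb8 libraries, and Lrpap1, the chaperone of Lrp1, at 48.8 ± 21.6 CPM in Hoxb8 and 52.5 ± 12.2 CPM in non-Hoxb8 libraries. Many other macrophages express Cd36 and Olr1. Within each pair the border macrophage and monocyte sums were higher in the Hoxb8 library, as were Cd36 and Olr1. Cd36 was highest in the library with the highest border macrophage sum of each group, at 53.0 CPM in Hoxb8 and 5.50 CPM in non-Hoxb8 libraries. The lowest Cd36 value of each group was not in the library with the lowest sum. Olr1 had the same order as the sum within the Hoxb8 group. The non-Hoxb8 library with the highest sum (377 CPM) held 0.687 CPM of Olr1, and the one with a sum of 220 CPM held 10.8 CPM. The part of border macrophages and monocytes in the Cd36 and Olr1 differences was not tested.

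Lipase partners and lipid storage genes had a median of 0.13 over 7 tested genes, 5 above 0. Lmf1, which matures Lpl, stood at 29.3 ± 4.13 CPM in Hoxb8 libraries and 26.8 ± 3.43 CPM in non-Hoxb8 libraries. The protease Furin stood at 43.6 ± 5.28 CPM in Hoxb8 and 36.1 ± 8.05 CPM in non-Hoxb8 libraries, and the hormone-sensitive lipase Lipe at 34.9 ± 11.3 CPM in Hoxb8 and 33.7 ± 5.62 CPM in non-Hoxb8 libraries. Other lipid ABC transporters had a median of -0.11 over 8 tested genes, 3 above 0. Abca2 stood at 43.7 ± 9.15 CPM in Hoxb8 libraries and 56.1 ± 11.9 CPM in non-Hoxb8 libraries, Abca3 at 82.1 ± 17.7 CPM in Hoxb8 and 79.3 ± 15.7 CPM in non-Hoxb8 libraries, and Abca5 at 2.11 ± 0.75 CPM in Hoxb8 and 2.82 ± 1.01 CPM in non-Hoxb8 libraries. Other apolipoproteins had a median of -0.38 over 4 tested genes, 1 above 0, and of 0.46 with the pairs. Clu, clusterin, stood at 8.58 ± 5.92 CPM in Hoxb8 libraries and 13.9 ± 14.3 CPM in non-Hoxb8 libraries, Apod at 5.34 ± 6.30 CPM in Hoxb8 and 0.867 ± 1.47 CPM in non-Hoxb8 libraries, and Apoa2 at 1.80 ± 2.32 CPM in Hoxb8 and 1.89 ± 1.45 CPM in non-Hoxb8 libraries. Apob, the core protein of low-density lipoprotein, had 77, 37 and 55 counts in Hoxb8 libraries and 296, 92, 67 and 155 counts in non-Hoxb8 libraries. In CPM the groups did not overlap (4.99 to 10.3 in Hoxb8 libraries and 10.7 to 40.6 in non-Hoxb8 libraries), with a log2 fold change of -1.57 ± 0.52 (edgeR adjusted p = 1.00).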

How the data were processed

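Per the labels' protocols, brains were freed of meninges and digested with trypsin, CD11b-bead captured cells were sorted on tdTomato and GFP, and low-input libraries were read as 50 bp single ends without strand. Per the labels and the submitters' processing notes, the authors mapped with STAR 2.4.1c on GRCm38 (GENCODE M5). The notes also name featureCounts, Subread and DESeq2, without versions. The deposited table gives whole-number counts by symbol, between 5922972 and 7753577 per library over 14616 rows (no filter is stated in the labels). Of these, 22 rows held numbers in place of names (median 0.133% of counts) and were left out.

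Members and lists were chosen with earlier results of these data known. Counts were fitted with edgeR 4.0.16 in R 4.3.3 (TMM, filterByExpr, robust quasi-likelihood, 11874 genes tested, Benjamini-Hochberg threshold 0.05) without an animal term, after tests on simulated data. The SE is the log2 fold change over the square root of F. Alternatives were DESeq2 1.42.0, limma-voom (limma 3.58.1), other scaling and filters, left-out libraries and the library pairs. Adjacent library numbers were accepted as pairs because deviations from group means correlated at 0.18, 0.28 and 0.19 across genes, each over 0.1, while non-neighbours lay between -0.21 and 0.06. Centring makes the deviations within a group cancel, so a high correlation with a neighbour lowers those with the other libraries. That contrast is thus partly built in. The pairing comes from the library numbers and from these same data, not from the labels. Totals were compared in scipy 1.17.1. Named genes were the members, the first 3 tested genes of each list, any called gene, and the 5 genes most like Apoe and Lpl; 1 gene that this rule names is not reported here. CPM and group means use all 7 libraries. Ch25h was not tested and so had no likeness ranking. GENCODE M21, of the same assembly, matched 14013 symbols and all 8 members. Genes of the lists with no row in the table are not analysed here.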

Additional observations from a re-analysis of the deposited data

Results flagged for a closer look

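In the 4 non-Hoxb8 libraries, 39 measures (8 members, 22 other lipid genes and 9 marker sums) were searched for a library far from the other 3, judged by its gap to the nearest over the whole range on a log2(CPM + 0.1) scale. This found 4, and chance gives about 5% of such groups. Abca1 stood at 927 CPM in library 25 and between 758 and 780 CPM in the others (gap over range 0.857). Nr1h3 had 0 counts in library 25 and 1.92 to 2.55 CPM in the others (0.918). Srebf1 stood at 16.8 CPM in library 25 and between 19.5 and 19.9 CPM in the others (0.879). Lipe stood at 42.2 CPM in library 5 and between 30.6 and 31.5 CPM in the others (0.911). Of the 4, 3 concern library 25, the non-Hoxb8 library without a neighbour in number, and it also had the highest Apoe, Lpl, astrocyte and border macrophage levels of its group.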

How the results depend on the processing

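Without pairs, 4 genes of the whole table were higher (Cd209a, Cd300ld, Itga4 and Plbd1, named after their values were seen) and 0 lower. DESeq2 gave 20 and 4, limma-voom 0 higher, the fit without libraries 21, 22 and 25 gave 0 and the fit without libraries 13 and 14 gave 2, and leaving out a single library gave 0 (without non-Hoxb8 replicate 1) to 6 (without Hoxb8 replicate 1), with 2 without Hoxb8 replicate 2. With the pairs as a replicate block edgeR gave 43 higher, DESeq2 49 and 2 lower, and limma-voom 47 and 1 lower. Leaving out pair A (libraries 6 and 5), B (14 and 13) or C (22 and 21) from that block gave 63, 31 and 50 higher and 5, 7 and 3 lower. The call on Apoe depends on the pairing. Its log2 fold change was 1.17 (edgeR), 1.17 (DESeq2) and 1.20 (limma-voom) with the block and 0.95, 1.10 and 1.43 without pair A, B or C, each past the threshold as 1 called member, while without pairs it was 0.39 to 1.19 on leaving out a library (edgeR adjusted p from 0.98 to 1.00), 1.38 without libraries 21, 22 and 25 and 0.47 without libraries 13 and 14. Other lipid genes called were 1 (Cd36) in DESeq2 with or without the pairs, in edgeR and limma-voom with them, and in the block without pair A or B, and 2 without pair C, where Olr1 was added. The limma-voom block and the fits without libraries 13 and 14 were chosen after the data were seen. Of 570 alternative log2 fold changes, 80 took the opposite sign, 0 of them past the threshold and 5 larger than their standard error (in Ncor1 and Clu). The cause was not tested.

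Among members, values of the opposite sign were those of Lpl (0.30 in the block without pair A), Abcg1 (0.0041, 0.0064 and 0.00029 with the block in edgeR, DESeq2 and limma-voom, 0.078 and 0.063 in the block without pair A and B, 0.030 without libraries 13 and 14, and -0.11 to 0.040 leaving out a library), Nr1h2 (0.096 and 0.030 in the block without pair A and B, 0.14 without libraries 13 and 14, and -0.20 to 0.21 leaving out a library) and Lrp1 (0.032 without libraries 13 and 14). With the block in edgeR, DESeq2 and limma-voom, the same held for Lipe (-0.038, -0.036 and -0.016) and Abca3 (-0.033, -0.031 and -0.025), for Clu in edgeR and DESeq2 (1.12 and 1.74) and for Apoa2 in limma-voom (0.45). Limma-voom without the block gave -0.0041 for Lipe and 1.11 for Clu. In the block without pair A the values were -0.28 for Srebf1, 0.091 for Rxra, -0.76 for Lrp8, -0.0088 for Lmf1, -0.076 for Lipe, -0.13 for Abca3, 0.17 for Clu and 0.49 for Apoa2. In the block without pair B they were 0.10 for Mylip, -0.13 for Ncor1, -0.76 for Lrp8, -0.11 for Abca3 and 2.51 for Clu. In the block without pair C they were 0.034 for Lpcat3, -0.19 for Rxrb, -0.12 for Cyp27a1, -0.28 for Hsd3b7, -0.24 for Lipe and 0.96 for Clu. Without libraries 21, 22 and 25 they were 0.032 for Lpcat3, -0.16 for Rxrb, -0.11 for Cyp27a1, -0.31 for Hsd3b7, -0.18 for Lipe and 0.88 for Apoa2. Without libraries 13 and 14 they were -0.19 for Ncor1, -0.0058 for Cyp27a1 and -0.98 for Lrp8. Leaving out a library gave ranges of -0.19 to 0.51 for Srebf1, -0.29 to 0.0069 for Lpcat3, -0.27 to 0.16 for Rxra, -0.14 to 0.13 for Ncor1, -0.17 to 0.28 for Hsd3b7, -0.78 to 1.66 for Lrp8, -0.53 to 0.11 for Lrpap1, -0.13 to 0.29 for Lipe, -0.14 to 0.15 for Abca3 and -1.96 to 0.48 for Apoa2. Depth limits Nr1h3 and Ch25h most.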

Other observations

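Some lipid genes that passed no test were free of overlap between groups, as were 2.48% of all tested genes above and 2.08% below; they are named after their values were seen. Lipa, the lysosomal acid lipase that frees cholesterol from its esters, stood at 344, 308 and 310 CPM in Hoxb8 libraries and 285, 266, 180 and 283 CPM in non-Hoxb8 libraries (log2 fold change 0.34 ± 0.18, edgeR adjusted p = 1.00). Nceh1, a neutral cholesterol ester hydrolase, stood at 8.68, 8.50 and 6.74 CPM in Hoxb8 libraries and 10.8, 13.6, 11.5 and 23.9 CPM in non-Hoxb8 libraries (-0.91 ± 0.47, edgeR adjusted p = 1.00). Abcg2 stood at 52.2, 50.6 and 59.8 CPM in Hoxb8 libraries and 38.5, 48.4, 48.9 and 50.3 CPM in non-Hoxb8 libraries (0.22 ± 0.25, edgeR adjusted p = 1.00).

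Of the remaining marker lists, neuronal markers summed to 26.7 to 51.8 CPM in Hoxb8 libraries and 9.94 to 81.3 CPM in non-Hoxb8 libraries. Oligodendrocyte markers summed to 148 to 327 CPM in Hoxb8 libraries and 162 to 359 CPM in non-Hoxb8 libraries, and endothelial and mural markers to 44.9 to 60.3 CPM in Hoxb8 libraries and 33.0 to 70.2 CPM in non-Hoxb8 libraries. Of the tested genes in these 3 lists and of the 12 immediate early genes 0 passed edgeR with or without pairs. Of the 12 inflammatory genes 0 passed without pairs and 3 with them, all 3 as higher. Over all tested genes, 0.362% passed as higher with pairs.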
